A study of Mus musculus with 2 samples.

Results

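The genes described here are 10 marker genes of alveolar type 1 cells, Ager, Hopx, Clic5, Akap5, Pdpn, Rtkn2, Emp2, Cav1, Spock2 and Limch1, out of 22072 gene symbols in the tables. They were chosen by name, with their values in these libraries already known, so their differences are a description and carry no test. RNA-seq was made from epithelial cells sorted from the lungs of adult mice as lineage-negative, CD326-positive and CD24-intermediate, a gate meant to enrich secretory airway cells that carry no cilia. All mice carried tetOCre and the floxed alleles Mst1-flx/flx and Mst2-flx/flx. The mice labelled Mst1/2 CKO also carried Scgb1a1-rtTA, in which the Scgb1a1 promoter of club cells drives the doxycycline-dependent activator of Cre, and the control mice lacked it. All mice ate doxycycline food (625 mg/kg) for 16 days. There was 1 library per genotype, each from the pooled RNA of 4 mice, so no value has a replicate error and no p-value is given. The genotypes also differ in the activator and in active Cre, which cannot be told apart here from the deletion.

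Type 1 cells are the thin, flat cells that line most of the alveolar surface and across which gas is exchanged. They arise from cuboidal type 2 cells, which make surfactant and can divide. Mst1 (gene symbol Stk4) and Mst2 (Stk3) are kinases of the Hippo pathway, which holds back the transcriptional coactivators Yap and Taz. The marker genes cover several parts of a type 1 cell. Ager, Pdpn, Emp2 and Cav1 encode membrane proteins. Clic5, Akap5, Limch1 and Rtkn2 encode proteins of the cell cortex, the cytoskeleton and its signalling. Hopx encodes a nuclear cofactor and Spock2 a secreted proteoglycan.

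Levels are given as FPKM, a fragment count corrected for how long the transcript is and how deeply the library was sequenced. Where a pair of values is given, the control library comes first and the library labelled Mst1/2 CKO second. The deleted genes themselves were at 5.38 and 4.71 (Stk4) and at 7.28 and 7.09 (Stk3). The labels do not say which exons Cre removes, so these whole-transcript values do not check the genotype, and the mutant library goes by its label throughout. Scgb1a1, the defining club cell gene, is listed at 0 in both libraries. Its status was not OK throughout, so its level is not known. The club cell gene Cyp2f2 had FPKM of 4694 and 5305. Sftpc, the surfactant protein C gene of type 2 cells, was at 7888 and 10270, so type 2 as well as club cell transcripts were abundant in both libraries. The FPKM of all 10 type 1 cell genes together came to 1.26% and 2.66% of that of Sftpc.

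Transcript starts are shown first, because Hopx has a pair of them that are listed separately. RefSeq promoter sequences (build GRCm38.p6, 250 bases before the start and 50 from it on) were found for 9 of the 10 genes, at 13 starts. The next sequences are the upstream and the inner Hopx promoter, those of Ager and Akap5, which had the highest level and the highest ratio, and the first listed promoter of Cav1, whose FPKM ratio was closest to 1. Capitals mark any match to the 5 motifs described after them.
Hopx upstream start, chr5:77115074-77115373, minus strand: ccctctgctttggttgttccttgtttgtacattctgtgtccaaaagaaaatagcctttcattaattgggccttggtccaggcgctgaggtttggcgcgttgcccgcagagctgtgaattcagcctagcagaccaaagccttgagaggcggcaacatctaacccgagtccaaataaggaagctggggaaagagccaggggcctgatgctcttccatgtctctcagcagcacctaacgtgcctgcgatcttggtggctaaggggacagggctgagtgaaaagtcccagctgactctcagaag
Hopx inner start, chr5:77095218-77095517, minus strand: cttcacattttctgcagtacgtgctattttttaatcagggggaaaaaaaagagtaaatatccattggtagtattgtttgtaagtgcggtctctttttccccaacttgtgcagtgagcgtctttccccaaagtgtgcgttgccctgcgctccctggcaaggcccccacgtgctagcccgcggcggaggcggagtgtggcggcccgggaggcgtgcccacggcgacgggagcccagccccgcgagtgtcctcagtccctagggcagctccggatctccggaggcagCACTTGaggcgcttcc
Ager, chr17:34597600-34597899, plus strand: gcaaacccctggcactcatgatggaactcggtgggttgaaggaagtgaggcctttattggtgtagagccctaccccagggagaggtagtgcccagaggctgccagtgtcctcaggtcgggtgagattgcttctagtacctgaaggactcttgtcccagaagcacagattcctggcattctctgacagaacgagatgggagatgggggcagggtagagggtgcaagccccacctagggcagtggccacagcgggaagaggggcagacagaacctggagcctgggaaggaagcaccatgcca
Akap5, chr12:76324641-76324940, plus strand: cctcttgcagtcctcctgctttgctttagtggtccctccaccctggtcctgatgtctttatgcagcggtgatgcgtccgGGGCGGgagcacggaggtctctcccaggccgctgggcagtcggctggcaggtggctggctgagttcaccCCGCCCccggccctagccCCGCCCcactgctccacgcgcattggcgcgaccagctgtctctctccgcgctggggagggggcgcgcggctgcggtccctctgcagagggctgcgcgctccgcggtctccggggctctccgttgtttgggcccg
Cav1 first start, chr6:17306085-17306384, plus strand: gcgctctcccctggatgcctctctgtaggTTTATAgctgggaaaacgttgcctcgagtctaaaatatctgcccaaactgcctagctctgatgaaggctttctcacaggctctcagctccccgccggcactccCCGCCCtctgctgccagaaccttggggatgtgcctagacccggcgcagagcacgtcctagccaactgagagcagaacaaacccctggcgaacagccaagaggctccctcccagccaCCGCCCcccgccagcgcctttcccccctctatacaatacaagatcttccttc

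The motifs were searched on both strands. The GC box GGGCGG, bound by Sp and Kruppel-like factors, was found at 6 of the 13 starts, those of Clic5, Akap5, Pdpn, Emp2, Cav1 and Limch1, and in 35.7% of all 32851 promoters of this length. Akap5 held 3 copies before its start, and Emp2 held 4 in all. The core CAAGTG of Nkx2 factors, the family of the lung regulator Nkx2-1, was found at 3 starts, the inner one of Hopx, that of Spock2 and 1 of Limch1, and in 13.6% of all promoters. TATAAA was found at 2 starts, 1 of Cav1 and 1 of Limch1 (13.6% of all promoters). The Tead core GGAATG and the AP-1 site TGANTCA were found at 0 of the 13 starts, and in 14.7% and 7.81% of all promoters. These counts describe the letters in these windows and say nothing of binding. The windows differed widely in base composition. Akap5 held 27 CG pairs and Ager 4, beside a median of 7 over all promoters.

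Of the 10 genes, 9 had a higher FPKM in the library labelled Mst1/2 CKO, and Cav1 was level. Ager, which encodes the receptor RAGE, reached the highest level of the set in both libraries. The highest ratio was that of Akap5, at 5.26. Hopx, Rtkn2, Clic5 and Ager followed between 3.26 and 3.34, and Emp2, Limch1, Pdpn and Spock2 between 1.57 and 1.86. On the log2(FPKM + 1) scale, where low genes differ less, 7 were at least 1.5-fold higher and 0 lower. Of 9945 genes with FPKM of at least 1 in either library, 3.02% were that much higher and 2.59% lower. With both libraries set to the same median, the split over all genes turned from 300 higher and 258 lower to 201 and 315, and with conversion to TPM (each library scaled to the same sum, 14070 genes) to 955 and 1237. At least 2-fold higher on that scale were 4 members, beside 0.754% of genes. By FPKM ratio alone, 9 members reached 1.5 (6.85% of genes) and 5 reached 2 (1.97%), where genes at 0 in the control library count as higher. The median log2 difference of the members was 0.85, beside 0.07 over all genes. Since the members were picked with these values known, nothing is read from this contrast with the background.

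**Figure D1:**
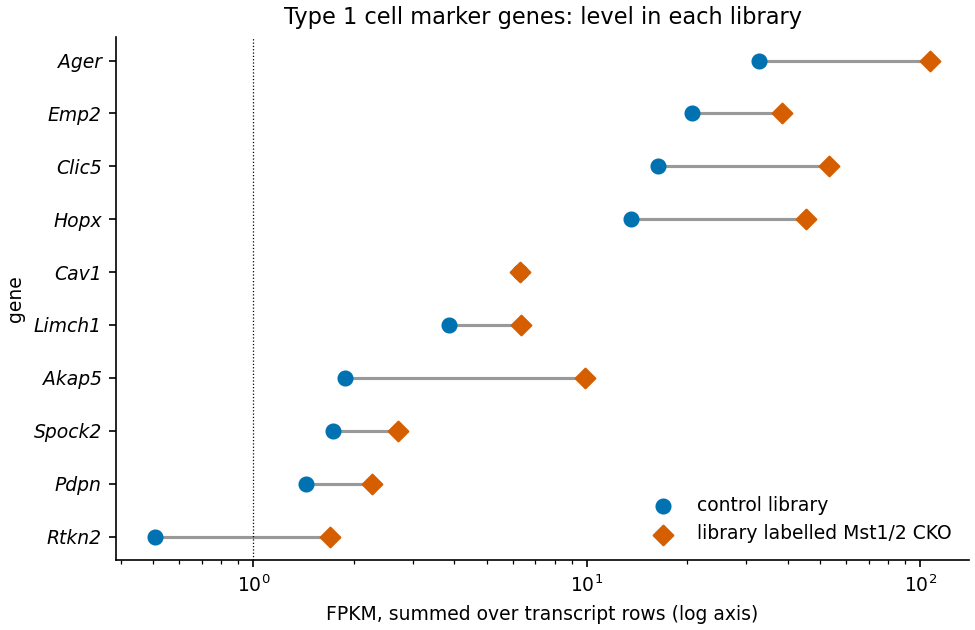
FPKM of each type 1 cell marker gene in the control library (circles) and in the library labelled Mst1/2 CKO (diamonds), on a log axis; the dotted line marks FPKM of 1 and each point is 1 pooled library. Every gene but Cav1, whose markers coincide near 6.3, lies to the right in the library labelled Mst1/2 CKO.

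The plot of levels by library shows how unequal the set is. Ager, the highest gene, was at 64.8 times the level of Rtkn2, the lowest, in the control library and at 63.2 times in the library labelled Mst1/2 CKO. Ager, Clic5, Emp2 and Hopx made up 84.2% and 89.3% of the summed FPKM of the set. The summed FPKM was 99.2 and 273, a ratio of 2.76, or of 2.51 with Ager left out. In a bulk sample, more cells of a type and more RNA per cell cannot be told apart.

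Among the membrane proteins, Ager (chr17:34734807-34737877 in mm9, the build of all gene positions here) was at 32.9 and 107. Its ratio was 3.26, with a 95% interval of 3.05 to 3.48 that covers counting error only, as do all intervals below. Ager is an immunoglobulin-family receptor that lies on the basal membrane of type 1 cells. It held place 496 by level among the 9945 genes in the control library and place 146 in the library labelled Mst1/2 CKO. Its close neighbours had ratios nearer to 1. Rnf5, which begins 167 bases beyond it, had FPKM of 34.9 and 33.6, and Pbx2, which ends 521 bases before it, 6.31 and 7.17. No other listed gene overlapped the locus of any member.

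Emp2, a tetraspan protein of the Pmp22 family, was at 20.7 and 38.5 (chr16:10281842-10314061), a ratio of 1.86 (1.75 to 1.96). Only Ager lay above it in the control library, and Ager, Clic5 and Hopx did so in the library labelled Mst1/2 CKO. Of its 3 relatives only Pmp22, a myelin and membrane protein gene, passed 1.5-fold, at 14.97 and 44.3 (ratio 2.96, 2.72 to 3.23), while Emp1 was at 32.0 and 35.5 and Emp3 at 1.18 and 1.27. Pdpn, or podoplanin, a mucin-type glycoprotein of the apical membrane, was low, at 1.44 and 2.26 (chr4:142857325-142889410). About 69 and 97 reads lay behind these values, and the ratio of 1.57 had a wide interval of 1.14 to 2.17. Pdpn is also made by lymphatic endothelium, mesothelium and airway basal cells. The summed FPKM of 5 lymphatic endothelial markers was 2.06 and 1.65, with none at FPKM of 1. Ccl21a is listed at 0 in both without status OK, so its level is not known. Of 6 basal cell markers 4 were measured, 2 of them at least 1.5-fold lower and 0 higher, and the summed FPKM was 21.8 and 7.55. Of 6 mesothelial markers 4 were measured, with 1 at least 1.5-fold lower and 0 higher, while the summed FPKM was higher, at 116 and 141. Krt19, a keratin that other epithelia also make, held most of that sum, at 108 and 135. Msln was at 2.58 and 3.50, Upk1b at 1.59 and 1.56 and Upk3b at 3.47 and 0.575, and Lrrn4 and Wt1 were below FPKM of 1 in both libraries. The part of these cells in the Pdpn value was not tested.

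Cav1 encodes caveolin-1, the coat protein of the flask-shaped caveolae that are plentiful in type 1 cells and endothelium. It was the exception of the set, at FPKM of 6.32 and 6.29 (chr6:17256370-17291324). The ratio was 0.995, with an interval of 0.864 to 1.14, and Cav1 ranked 6397th of the 9945 genes by difference. Its partner Cav2 ends 17359 bases before it and was at 3.48 and 6.48, with a ratio of 1.86 (1.58 to 2.20). Cav2 was thus below Cav1 in the control library and close to it in the library labelled Mst1/2 CKO. Of 6 caveola genes measured besides Cav1, 2 were at least 1.5-fold higher (Cav2 and Ehd2) and 0 lower, with a median log2 difference of 0.43. Only Cav2 remained past 1.5-fold with equal library medians. Ehd2, an ATPase at the neck of caveolae, was at 9.37 and 14.6. Ptrf, which encodes cavin-1, was at 8.37 and 12.8, an FPKM ratio of 1.53. Sdpr, which encodes cavin-2, had the highest level of the list, at 24.7 and 30.4. Blood endothelium also expresses Cav1. Of its 8 markers only Kdr and Car4 were measured, and both were at least 1.5-fold lower. Kdr had FPKM of 9.05 and 5.11, and Car4 1.27 and 0.102. The other 6 were below FPKM of 1 in both libraries. Among these Cdh5 was at 0.425 and 0.475, Ednrb at 0.126 and 0.151 and Tie1 at 0.0816 and 0.114, while Pecam1, Emcn and Tek had lower values in the library labelled Mst1/2 CKO. The summed FPKM of the 8 was 12.3 and 6.80, most of it Kdr. Whether this bears on the level value of Cav1 was not tested.

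**Figure D2:**
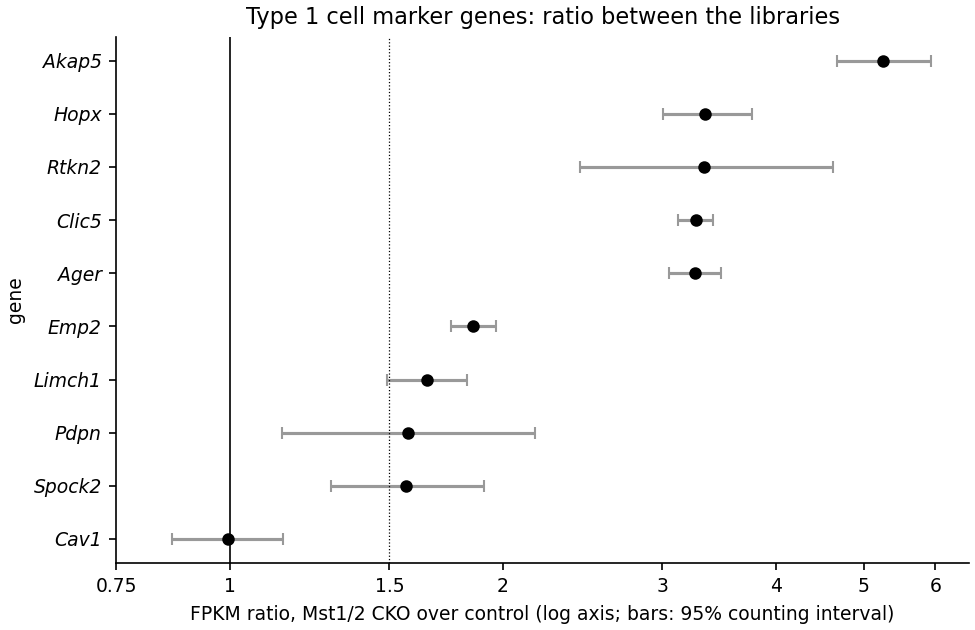
FPKM ratio of each gene, library labelled Mst1/2 CKO over control, on a log axis; bars are exact 95% intervals for counting error only, the solid line marks 1 and the dotted line 1.5. Akap5 stands apart at 5.26, Hopx, Rtkn2, Clic5 and Ager lie close to 3.3, Emp2, Limch1, Pdpn and Spock2 lie between 1.57 and 1.86, and Cav1 lies at 0.995.

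In the order of ratios, the intervals of neighbours overlapped except between Akap5 and Hopx, between Ager and Emp2, and between Spock2 and Cav1. Of the 45 pairs of members, 32 had intervals that did not overlap. The share over pairs of all genes was not computed, so this count is not read as a trait of the members. The intervals rest on approximate reads, so whether the members share a single ratio was not tested. How far mice or preparations differ is not known from 1 library per genotype.

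Among the genes of the cell cortex, Clic5 (chr17:44325521-44417117) was at 16.3 and 53.4, with a ratio of 3.27 (3.12 to 3.42). Clic5 is a chloride intracellular channel family protein that associates with ezrin and cortical actin. It had the most reads of the set, about 2598 and 7589. Within its family the values diverged. Clic3 was at 68.5 and 174, a ratio of 2.54 (2.39 to 2.70), Clic4 at 16.7 and 18.2, Clic1 at 12.7 and 10.4, and Clic6 at 4.04 and 3.11. So 1 of these 4 relatives was at least 1.5-fold higher and 0 lower, and their median log2 difference was -0.07. Among 6 measured genes of ezrin, its relatives and their linkers, only Msn, which encodes moesin, passed 1.5-fold, at 33.7 and 78.1 (ratio 2.32, 2.23 to 2.41). Ezr itself was at 34.1 and 44.4. Cd44, a membrane partner of these proteins, was at 43.1 and 30.5.

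Akap5 encodes an anchoring protein that holds protein kinase A, protein kinase C and the phosphatase calcineurin at the membrane. Its level was 1.88 and 9.88 (chr12:77425878-77435138). The ratio of 5.26 (4.68 to 5.93) rested on about 340 and 1600 reads. Akap5 held place 7538 by level in the control library and place 2045 in the library labelled Mst1/2 CKO, and it ranked 14th of 9945 genes by log2 difference. Its partners differed little. Of 9 measured genes for protein kinase A, calcineurin and other Akap5 partners, 0 were past 1.5-fold in either direction, and the median was 0.19. Ppp3ca, a catalytic subunit of calcineurin, had the highest level and the largest difference among them, at 17.9 and 24.2. Of 8 other anchoring protein genes measured, only Akap2 passed 1.5-fold on the log2(FPKM + 1) scale, at 2.10 and 5.94 (ratio 2.83, 2.51 to 3.20). Akap13, with the highest level of that list, was at 19.8 and 29.8, an FPKM ratio of 1.501.

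Limch1, a protein with calponin homology and LIM domains that activates nonmuscle myosin 2 in human cells, was at 3.85 and 6.35 (chr5:67137079-67448398). Its ratio was 1.65 (1.49 to 1.83), and its log2 difference of 0.60 lay just past the 1.5-fold line, which is 0.58. It was 0.52 with equal library medians and 0.50 with the trend of transcript length removed, both short of that line. Among 6 measured nonmuscle myosin genes the median log2 difference was 0.51, with 1 at least 1.5-fold higher and 0 lower. That gene was Myh14, a heavy chain, at 17.1 and 29.2. Myh9, another heavy chain, was at 18.8 and 27.0, and the light chain Myl12b, the most abundant of the list, at 105 and 149.

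Rtkn2 encodes a protein of the rhotekin family. It was the lowest member, at 0.507 and 1.69 (chr10:67442346-67506612), so it passed the level of FPKM 1 only in the library where it was higher. The ratio of 3.34 had an interval of 2.43 to 4.62 and rested on about 54 and 161 reads. Its relative Rtkn was at 6.63 and 8.26.

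**Figure D3:**
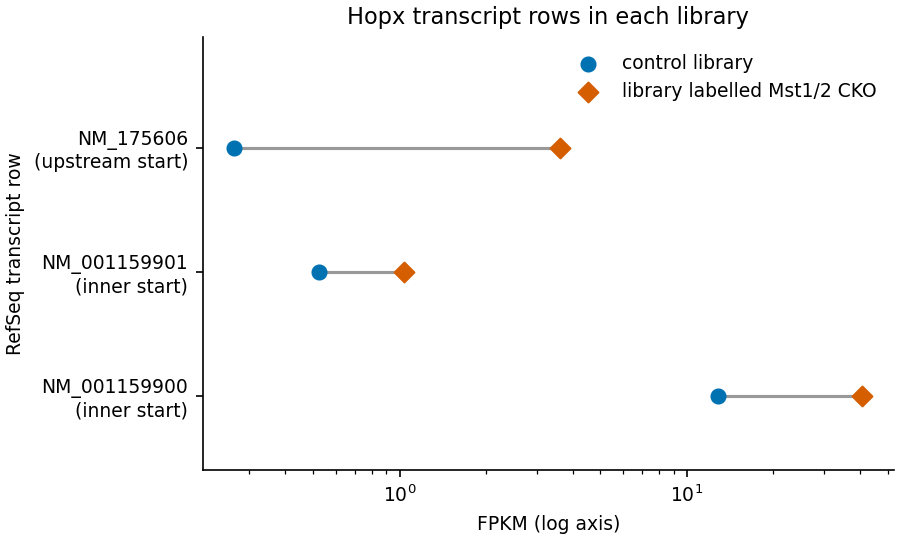
FPKM of the Hopx transcript rows in the control library (circles) and the library labelled Mst1/2 CKO (diamonds), on a log axis, 1 pooled library each. The row with the upstream start lies at 0.265 and 3.62, a wider gap than for either row with the inner start.

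Hopx, the nuclear member, encodes a small homeodomain protein that does not bind DNA itself and acts through partners such as Srf and histone deacetylases. Summed over its 3 rows, it was at 13.6 and 45.4 (chr5:77516011-77544148), with a ratio of 3.34 (3.01 to 3.77). It was the only member with more than 1 row. The plot of Hopx rows shows that they differed unequally between the libraries. NM_001159900, with the inner start, carried most of the signal, at 12.8 and 40.8 (ratio 3.18, 2.83 to 3.59). NM_001159901, with the same inner start, was at 0.523 and 1.04 (ratio 1.98, 1.09 to 3.93). NM_175606, with the upstream start, was at 0.265 and 3.62, a ratio of 13.6 (7.01 to 30.9) on about 9 and 111 reads. Its share of Hopx FPKM was 1.95% and 7.96%. The upstream end of this row lies 19856 bases from that of the inner rows, the same distance as between the Hopx promoters printed above, and each row was assigned to its promoter by this distance. The rows share exons, so these values depend on how Cufflinks divided the shared reads, and the intervals leave that out. Hopx partners differed little. Of Srf (8.93 and 8.07), Hdac2 (10.3 and 8.13), Gata6 (9.33 and 11.3) and Nkx2-1 (74.2 and 88.1), 0 passed 1.5-fold.

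Spock2, the secreted member, encodes the proteoglycan testican-2. It was at 1.73 and 2.71 (chr10:59569005-59596661), with a ratio of 1.57 (1.29 to 1.91). The other testicans were lower than Spock2 in both libraries, Spock1 at 0.0464 and 0.0440 and Spock3 at 0.296 and 0.316. Their relative Sparc, a secreted matrix-binding protein, was at 51.4 and 110, a ratio of 2.14 (2.05 to 2.23), whereas Sparcl1 was at 2.26 and 1.04.

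**Figure D4:**
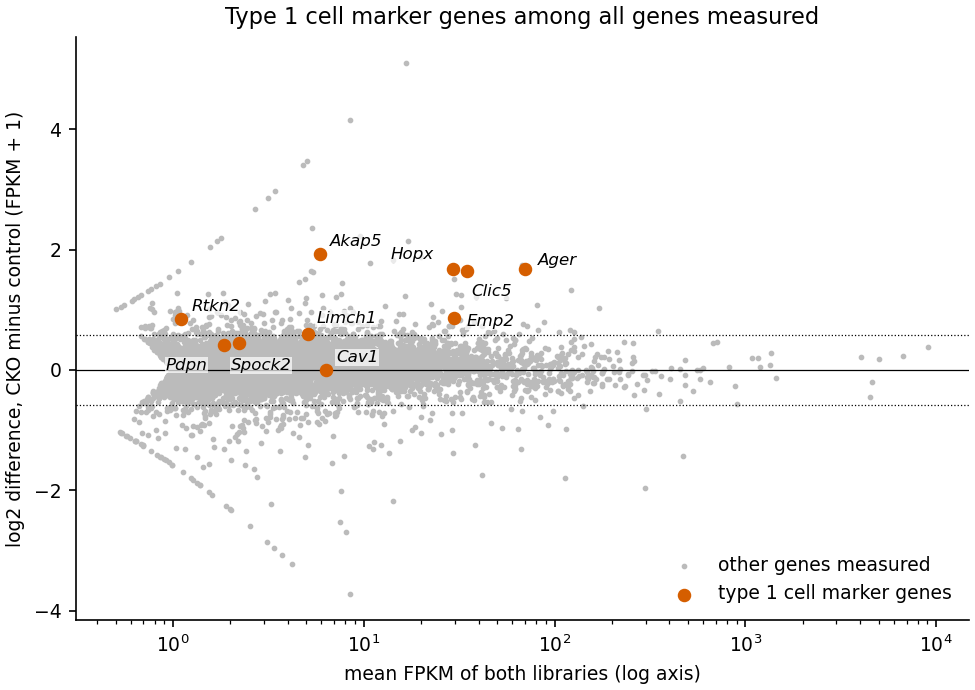
Each point is a gene with FPKM of at least 1 in either library, placed by its mean FPKM (log axis) and its log2 difference on the FPKM + 1 scale, library labelled Mst1/2 CKO minus control; dotted lines mark 1.5-fold. Ager, Hopx, Clic5 and Akap5 lie above 1.6, Cav1 lies near 0, and Pdpn and Spock2 lie below the upper line.

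The plot of all genes places the members by level and difference. By log2 difference, Akap5 ranked 14th, Ager 20th, Hopx 21st and Clic5 22nd of 9945 genes. Emp2 ranked 107th, Rtkn2 112th, Limch1 274th, Spock2 620th and Pdpn 699th. Among 2080 genes with FPKM of at least 10 in either library, status OK and a transcript of at least 300 bases, Ager, Hopx and Clic5 held places 7, 8 and 9. The non-members with the highest differences among these were Iyd (FPKM 2.72 and 16.4), Psca (5.67 and 28.4), Akr1c14 (8.02 and 32.1), Porcn (5.74 and 22.9), Ctgf (4.30 and 17.2), Igfbp7 (30.4 and 104), Upk1a (3.68 and 11.8) and Flrt3 (4.05 and 11.1), together with Pmp22 and Clic3, given above. All of these but Igfbp7, Pmp22 and Clic3 passed the FPKM of 10 only through the library labelled Mst1/2 CKO, where they were higher. Pmp22 and Clic3 belong to the families of Emp2 and Clic5. Likeness here is the size of 1 difference between 2 libraries and no more.

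The difference went up with transcript length across genes, from a median log2 difference of -0.006 in the shortest of 5 equal length classes to 0.11 in the longest. Ager and Hopx lie in the shortest class, and Akap5, Clic5 and Limch1 in the longest. At least 1.5-fold higher were 5.13% of genes in the shortest class and 2.62% in the longest. By level, 5.99% of the 718 genes with mean FPKM of 20 to 100 were that much higher. Ager, Clic5, Emp2 and Hopx lie in this range.

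Other genes known from type 1 cells also had higher values. Of 21 in the list 19 were measured, and 14 of these were at least 1.5-fold higher and 0 lower, at a median log2 difference of 0.73. This list too was drawn up with earlier results known, and with equal library medians the count was 10. Gramd2 had the largest difference, at FPKM of 3.20 and 8.94 (ratio 2.80, 2.26 to 3.50). Sec14l3 was the most abundant, at 112 and 228 (ratio 2.05, 2.001 to 2.09), and the LIM domain gene Lmo7 was at 16.9 and 34.2. S100a6, a calcium-binding protein that many cells make, was at 5.25 and 5.75. Igfbp2 was below FPKM of 1 in both libraries, at 0.161 and 0.493. In the control library Sec14l3, Cldn18, Timp3, Gprc5a and Ahnak lay above Ager. Which cells made the transcripts of this list was not tested. Of the genes for binding partners of the Ager receptor, 4 were measured and 0 passed 1.5-fold. App, the amyloid precursor gene, was at 59.6 and 75.3, and Hmgb1, a chromatin protein and classic ligand, at 21.9 and 24.1. S100a8 (0.690 and 0.211), S100a9 (0.693 and 0.731) and S100b (0.116, and listed at 0 in the other library) were below FPKM of 1.

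**Figure D5:**
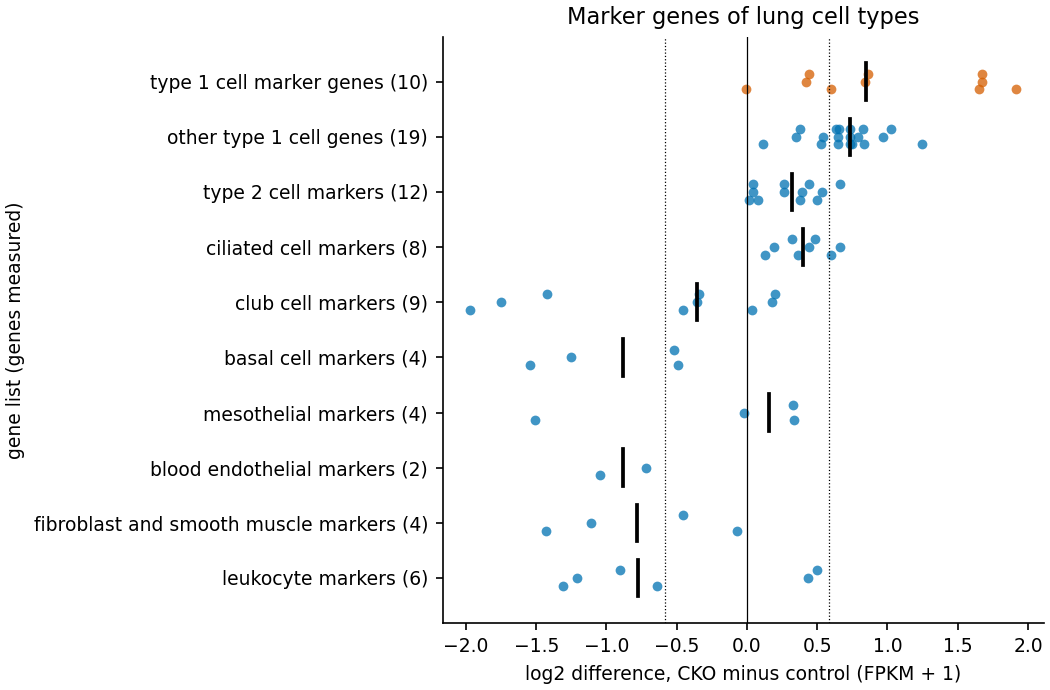
Log2 difference on the FPKM + 1 scale, library labelled Mst1/2 CKO minus control, of each measured gene in marker lists of lung cell types; black bars are medians, dotted lines mark 1.5-fold and numbers in brackets count genes. The type 1 lists have medians of 0.85 and 0.73, type 2 cell markers 0.32, and basal, endothelial, fibroblast and leukocyte markers lie mostly below 0.

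Markers of other cell types also differed between the libraries, in both directions, as the plot of marker lists shows. All 12 type 2 cell markers had positive differences, with a median of 0.32 and 1 at least 1.5-fold higher, and their summed FPKM was 11654 and 14525. With equal library medians 8 of the 12 were positive and 0 past 1.5-fold. Sftpc had a ratio of 1.30 (1.29 to 1.31), below those of the 9 type 1 genes that were higher. Lpcat1, the type 2 marker past 1.5-fold, was at 93.7 and 149. Its ratio of 1.58 (1.52 to 1.65) was slightly above those of Pdpn and Spock2. The 8 measured ciliated cell markers had a median of 0.40, with 2 at least 1.5-fold higher, or 0 with equal medians, and summed FPKM over the whole list of 36.6 and 57.7. Club cell markers had a median of -0.36, with 3 of 9 past 1.5-fold in the lower direction and 0 in the higher. Of the 9, 3 had positive differences, Cyp2f2 (ratio 1.13), Gsta3 (1.15) and Hp (1.03). The summed FPKM of the club cell list was 12328 and 10561, with Scgb1a1 listed at 0 though its level is not known. Scgb3a1, a secretoglobin with the largest difference of the list, was at 477 and 121. Of 6 measured leukocyte markers 4 were lower by that much and 0 higher, and the summed FPKM of the list of 8 was 13.4 and 6.46. The other 2 measured had higher values, Cd79a with an FPKM ratio of 2.02 (1.11 to 3.71) and Csf1r with one of 1.83 (1.43 to 2.37), and both passed 1.5-fold in the higher direction after conversion to TPM or with no pseudocount. Of 4 fibroblast and smooth muscle markers measured 2 were lower and 0 higher, with sums over the whole list of 19.4 and 8.59. Dcn, a fibroblast gene, was at 11.9 and 3.79. The smooth muscle genes Acta2 (0.291 and 0.604) and Myh11 (0.0746 and 0.172) were higher in the library labelled Mst1/2 CKO, but below FPKM of 1 in both. Also below it, Col1a1 was at 0.824 and 0.828, and Pdgfra and Pdgfrb had lower values in that library. Of 4 mesothelial markers measured, 1 was lower and 0 higher, with the values given beside Pdpn. The part of cell composition in the type 1 gene values was not tested.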

How the data were processed

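RNA was pooled from 4 mice per genotype and made into 1 library each with the Nextera XT kit, per the labels' protocols. TopHat, Cufflinks and build mm9 are named in the submitters' processing notes, without versions or settings. Each of 28107 transcript rows holds, per the file headers, an FPKM value and a coverage (the signal of mean read depth over the transcript), both deposited by the authors. Status was OK for every row of the 10 genes. Start positions count from 0 (in 99.7% of 653 microRNA rows the end minus the start equals the length) and are printed raised by 1.

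FPKM was summed over rows of a symbol. Differences are log2((FPKM + 1) CKO over (FPKM + 1) control), for genes with FPKM of at least 1 in either library. Read counts are not in the tables used. Coverage times length over 47.1 bases, taken as 1 read (the median of low values between 25 and 75 bases), gave about 8780000 and 8340000 reads. Whole reads could not be recovered: 23.7% and 23.1% of low values lay within 0.1 of a whole number, little more than evenly spread values would give. The intervals are therefore approximate. Ahnak, for example, had an FPKM ratio of 1.45 outside its interval of 1.47 to 1.53. Exact (Clopper-Pearson) 95% intervals use the rounded reads and a depth ratio of 0.895. They cover counting error only, since reads amplified from 1 molecule are not independent. The calculation of fold counts and intervals was tried on simulated data. Such a trial checks the calculation only. It cannot show how well the intervals cover the error of these libraries, whose reads are not all independent. With 1 library per genotype no test between genotypes was run.

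Members, lists and motifs were chosen with earlier results of these data known. Named list genes were those with the highest FPKM or largest differences, plus family members and partners chosen after their values were seen. Python 3.11.15, pandas 2.3.3 and SciPy 1.17.1 were used. Other settings tried were the pseudocount, the filter, TPM, equal medians, the highest row per symbol, the length trend, and genes with status OK and a transcript of at least 300 bases.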

Additional observations from a re-analysis of the deposited data

How the results depend on the processing

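All 97 single-gene values of the 10 members under other settings kept their sign. A change of pseudocount or filter cannot turn a sign, so for those settings this was fixed in advance. Of the 97 values, 17 moved by at least the half-width of their counting interval. Rtkn2 ranged from 0.28 to 1.74 and Akap5 from 1.11 to 2.39. The count of members at least 1.5-fold higher ranged from 5 (pseudocount of 5) to 9 (pseudocount of 0.1, or none), and 0 were lower under any setting tried. It was 6 with equal library medians or the length trend removed, in both cases without Limch1, and 6 of 7 with the filter at FPKM of 5. The members' median log2 difference was 1.23 with a pseudocount of 0.1, 0.56 with 5, 1.30 with none, 1.14 after conversion to TPM and 1.65 with the filter at FPKM of 5, which drops Pdpn, Rtkn2 and Spock2. Akap5 (1.88 and 9.88) and Limch1 (3.85 and 6.35) passed the filter at FPKM of 5 only through the library labelled Mst1/2 CKO, where they were higher. Both the count of 6 of 7 and the median of 1.65 include them. Leaving out 1 member at a time gave medians of 0.84 to 0.86. Over all 9945 genes, at least 1.5-fold higher and lower were 614 and 476 with a pseudocount of 0.1, and 84 and 68 with 5. They were 201 and 315 with equal library medians and 240 and 294 with the length trend removed. With no pseudocount they were 662 and 475 of 9892 genes above 0 in both libraries. With the filter at FPKM of 5 they were 161 and 104 of 4253 genes. After conversion to TPM they were 955 and 1237 of 14070 genes. That conversion raises values against the pseudocount and lets in more genes. With status OK and a transcript of at least 300 bases 259 and 207 of 9761 genes were higher and lower, and 7 members were higher. This setting and those with no pseudocount and with members left out were chosen after seeing the data. No paired analysis was possible because each genotype has 1 library. Low genes such as Rtkn2 and Pdpn are limited by depth.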
